A study of Mus musculus with 64 samples.

Results

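The smooth muscle contractile genes examined here are 33 genes of the colon's smooth muscle cells, out of 23990 gene symbols listed for every library. They were taken by symbol from a fixed list of contractile, cytoskeletal and calcium-handling genes, by a rule that used no values. The list was chosen with earlier results of these data known, so counts of called genes below do not come from a list set blind to them. All 33 were found in each of the 64 libraries. The libraries hold poly(A) RNA of colon from C57BL/6 mice, and each gives 1 FPKM value per gene, a read count scaled to transcript length and to the size of the library. The study's design text speaks of colonic mucosa. A biopsy library came from the wound bed left after a pinch biopsy, and a sham library came from normal tissue of sham-treated mice. The time course held 6, 5, 6 and 5 biopsy libraries against 4, 5, 5 and 5 sham libraries, in the order 1 h, 6 h, 3 d, 6 d after the procedure. A second cohort, collected at 6 h, held 5 biopsy and 6 sham libraries titled abx and 6 biopsy and 6 sham libraries titled veh. The abx-titled libraries carry the condition control and the veh-titled ones the condition Antibiotic Treated, so the arms are called by their titles and no direction is drawn about antibiotics. The mice's sex and age, and whether each library was a different mouse, are not stated in the labels. The p-values here therefore set differences against the spread between these libraries, which may be partly technical.

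Smooth muscle of the colon lies in the muscularis mucosae under the glands, in the thick outer muscle layers and in the walls of blood vessels. It contracts when calcium bound to calmodulin activates myosin light chain kinase, which phosphorylates the regulatory light chain of smooth muscle myosin, and relaxes when myosin phosphatase removes that phosphate. Many of the genes are switched on by serum response factor (SRF), which binds a DNA element called the CArG box, together with its coactivator myocardin. Several of them are also active in other cells, such as Acta2 and Tagln in pericytes and myofibroblasts, Tpm1, Flna, Cald1 and Csrp1 in many cell types, and Tnnt2, Ckm, Casq2, Pln and Ldb3 in striated muscle.

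The genes were grouped by role. The 12 filament genes encode smooth muscle myosin heavy chain (Myh11), its regulatory light chain (Myl9), the actins Acta2 and Actg2, and the actin-binding proteins calponin (Cnn1), transgelin (Tagln), leiomodin (Lmod1), smoothelin (Smtn), caldesmon (Cald1), the tropomyosins Tpm1 and Tpm2, and troponin T (Tnnt2). The 5 kinase and phosphatase genes are Mylk, the myosin light chain kinase, Dmpk, a protein kinase, Ppp1r12b, a targeting subunit of myosin phosphatase, Ppp1r14a, the phosphatase inhibitor CPI-17, and Pcp4, a small calmodulin-binding protein. The 7 genes of intermediate filaments, crosslinkers and adhesion are Des (desmin), Synm (synemin), Flna (filamin A), Synpo2, Csrp1, Pgm5 and Ldb3. The 4 calcium genes are Casq2 (calsequestrin) and Pln (phospholamban) of the calcium store, Jph2, which ties the store to the cell membrane, and Kcnmb1, a subunit of the large-conductance potassium channel. The last groups are the creatine kinases Ckm and Ckb with the small heat shock proteins Hspb6 and Hspb7, and the coactivator Myocd on its own.

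On the mm10 build, in the GENCODE annotation, the protein-coding genes the results turn on span Myh11 at chr16:14194535-14291372, minus strand, Acta2 at chr19:34241090-34255590, minus strand, and Actg2 at chr6:83512905-83536265, minus strand. Des lies at chr1:75360329-75368579, plus strand, Cnn1 at chr9:22099216-22109630, plus strand, and Synm at chr7:67730160-67759742, minus strand. Pcp4 lies at chr16:96467606-96525793, plus strand, Ckm at chr7:19404776-19422841, plus strand, and Ppp1r14a at chr7:29289308-29293801, plus strand. Hspb7 lies at chr4:141420779-141425311, plus strand, Tnnt2 at chr1:135836354-135852260, plus strand, Lmod1 at chr1:135324807-135368065, plus strand, and Casq2 at chr3:102086415-102146514, plus strand. Each span holds exons, introns and untranslated regions, and FPKM values rest on exons.

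Because SRF is the shared regulator named for these genes, their start sites were searched for the CArG box on both strands, in RefSeq windows of 250 bases before to 50 after each start (build GRCm38.p6). Of the 33 genes, 29 had a window, and Myh11, Actg2, Tagln and Myocd did not. A CArG box stood in the window of 2 of these 29 genes (6.9%), Myl9 and Ldb3, against 488 of 27025 genes (1.81%). A box with 1 C or G in its A and T core stood in 7 of the 29 (24.1%), Acta2, Ckm, Hspb6, Jph2, Myl9, Pcp4 and Synm, against 2620 of 27025 genes (9.69%). The 4 windows below are shown because Acta2 and Myl9 are main filament genes, Ldb3 is the other gene with a full box, and Pcp4 had the lowest change of the list at 3 d. Capitals mark every box of either kind.
Acta2, chr19:34255324-34255623 (minus strand): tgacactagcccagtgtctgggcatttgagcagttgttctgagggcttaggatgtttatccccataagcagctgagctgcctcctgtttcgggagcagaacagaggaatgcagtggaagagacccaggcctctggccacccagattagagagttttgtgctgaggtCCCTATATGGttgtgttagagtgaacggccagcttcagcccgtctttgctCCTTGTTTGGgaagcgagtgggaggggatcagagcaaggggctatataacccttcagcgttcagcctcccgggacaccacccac
Myl9, chr2:156775214-156775513 (plus strand): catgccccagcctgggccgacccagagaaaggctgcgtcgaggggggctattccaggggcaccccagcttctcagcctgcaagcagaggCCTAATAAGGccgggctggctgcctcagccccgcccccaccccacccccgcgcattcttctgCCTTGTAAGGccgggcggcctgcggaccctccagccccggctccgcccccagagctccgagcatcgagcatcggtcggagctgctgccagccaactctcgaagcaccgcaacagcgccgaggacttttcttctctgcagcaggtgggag
Pcp4, chr16:96467356-96467655 (plus strand): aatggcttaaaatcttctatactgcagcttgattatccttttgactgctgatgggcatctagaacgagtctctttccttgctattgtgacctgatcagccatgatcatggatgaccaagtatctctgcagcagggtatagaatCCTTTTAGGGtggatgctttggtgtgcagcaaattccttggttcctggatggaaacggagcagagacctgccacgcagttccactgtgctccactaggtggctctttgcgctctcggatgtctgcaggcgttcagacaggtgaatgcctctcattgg
Ldb3, chr14:34588632-34588931 (minus strand): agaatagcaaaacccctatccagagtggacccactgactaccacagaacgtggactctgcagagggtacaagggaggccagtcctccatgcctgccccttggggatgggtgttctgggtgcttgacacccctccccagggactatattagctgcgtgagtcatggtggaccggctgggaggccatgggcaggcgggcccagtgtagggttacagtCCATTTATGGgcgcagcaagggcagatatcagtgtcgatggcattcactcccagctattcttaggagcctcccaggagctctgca
In Acta2 the boxes begin 84 and 34 bases before the start, in Myl9 161 and 99 bases before, in Pcp4 107 and in Ldb3 35 bases before. A match is a stretch of letters and not a measured binding site.

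Read counts are not used here, and the number of reads behind each value is unknown. Summed FPKM ran over 414318 to 522098 per time course library and over 229752 to 266646 per library of the second cohort, and 11351 to 12791 and 10442 to 11336 genes reached 1 FPKM, so the cohorts were fitted separately and no level is compared between them. Every library carried the labelled tissue's markers, since 12 colon epithelium genes summed to 3321 to 12517 FPKM. Log2(FPKM + 1) was tested with limma, with Benjamini-Hochberg adjustment over the 13285 genes of the time course and the 11849 of the second cohort that reached 1 FPKM in at least 4 libraries. A call is an adjusted p under 0.05, and a fold on this scale understates changes of genes near 1 FPKM. Scaling libraries by the median of ratios moved the median change of all genes from -0.18 to 0.01 at 1 h, from -0.12 to 0.00 at 6 h and from 0.09 to -0.01 at 3 d, and turned 1246 higher and 5973 lower calls at 1 h into 2762 and 2749, so directions are relative to the scale used. Of the 33 genes 32 were tested in both cohorts, and Myocd, at 0.0684 to 1.23 FPKM, was not.

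The levels of the tested genes covered a wide range, compared here per kilobase of transcript. In 6 h sham libraries Tagln averaged 758 ± 230.4 FPKM (SD, n = 5), Tpm1 534 ± 123, Actg2 505 ± 188 and Myl9 467 ± 137. These genes were measured in the same libraries, so the SD between libraries does not measure differences between genes, and their order was not tested. At the low end stood Kcnmb1 at 2.42 ± 0.523, Pln at 1.79 ± 0.578 and Ppp1r12b at 1.34 ± 0.310 FPKM (SD, n = 5). A gene on the other strand overlaps 62.4% of the exon bases of Tagln, 59.6% of those of Pln, 16.3% of Smtn and 15.5% of Ckm, and 4.74% to 5.86% in Des, Hspb6, Synm, Mylk and Ppp1r12b. The use of strand in counting was not given, so reads in these overlaps may come from either gene.

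The contractile genes rose and fell together from library to library within a group, and most of them had more spread than the median of all tested genes. How far other genes moved together was not measured. The 33 genes summed to 0.429% to 1.68% of all FPKM in the 6 biopsy libraries at 1 h, against 0.791%, 0.91%, 0.796% and 1.43% in the 4 sham libraries. At 6 h they summed to 0.951%, 1.06%, 0.964%, 1.57% and 0.485% in the 5 biopsies, against 0.709%, 1.196%, 0.806%, 1.36% and 0.759% in the 5 shams. At both of these times the biopsies bracketed the shams.

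At 3 d the 33 genes summed to 0.359% to 0.781% in the 6 biopsies, against 0.634%, 1.29%, 1.00%, 0.83% and 1.54% in the 5 shams, and only biopsy 6 overlapped the shams. At 6 d they summed to 0.535%, 1.05%, 0.534%, 0.536% and 0.669% in the 5 biopsies, against 0.835%, 0.81%, 1.04%, 1.25% and 1.23% in the 5 shams, and biopsy 2 alone reached the shams. In the second cohort the share was 0.842%, 1.01%, 1.11%, 1.38% and 0.601% in the 5 abx-titled biopsies, against 0.557% to 1.93% in the 6 abx-titled shams. It was 0.214% to 1.81% in the 6 veh-titled biopsies, against 0.814% to 1.50% in the 6 veh-titled shams, so the veh-titled biopsies lay on both sides of their shams.

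Single libraries stood at an end for nearly the whole list. Sham 5 at 1 h, biopsy 5 at 6 h, biopsy 6 at 3 d and veh-titled biopsy 3 were each the highest of their group for all 33 genes. Biopsy 6 at 1 h was the lowest of its group for 30 genes, biopsy 6 at 6 h for 32, sham 1 at 3 d for 32, abx-titled biopsy 6 for 31 and veh-titled biopsy 4 for 30. The median over the genes of the highest library over the lowest was 4.19-fold in 1 h biopsies and 1.96-fold in 1 h shams, 3.47-fold and 1.99-fold at 6 h, 2.57-fold and 2.81-fold at 3 d, and 2.01-fold and 1.66-fold at 6 d. It was 2.53-fold in abx-titled biopsies and 3.85-fold in abx-titled shams, and 13.5-fold in veh-titled biopsies against 1.96-fold in veh-titled shams. Pcp4 had the widest span, 153-fold among veh-titled biopsies, from 0.255 FPKM in biopsy 4 to 38.9 in biopsy 3.

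The residual standard deviation, the spread of log2(FPKM + 1) between libraries of a group, had a median of 0.5256 over the 32 tested genes against 0.137 over all 13285 tested genes of the time course. In the second cohort these medians were 0.682 and 0.133 over all 11849 genes. When each value was taken relative to the mean log2(FPKM + 1) of the 32 tested genes in the same library, the median fell to 0.174 and 0.249, and 29 and 28 of the 32 genes had less spread than before. Each gene is part of that mean, so some of this fall is built in. In bulk tissue, fewer smooth muscle cells in a sample and less RNA per cell cannot be told apart, and the amount of muscle in each sample was not measured. Markers of other cells moved along in some of these libraries, and their part in the spread was not tested. Sham 1 at 3 d, lowest for 32 genes, had the highest epithelial sum of the 3 d libraries, 10762 FPKM against 6991 to 7933 in the other 4 shams.

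**Figure D1:**
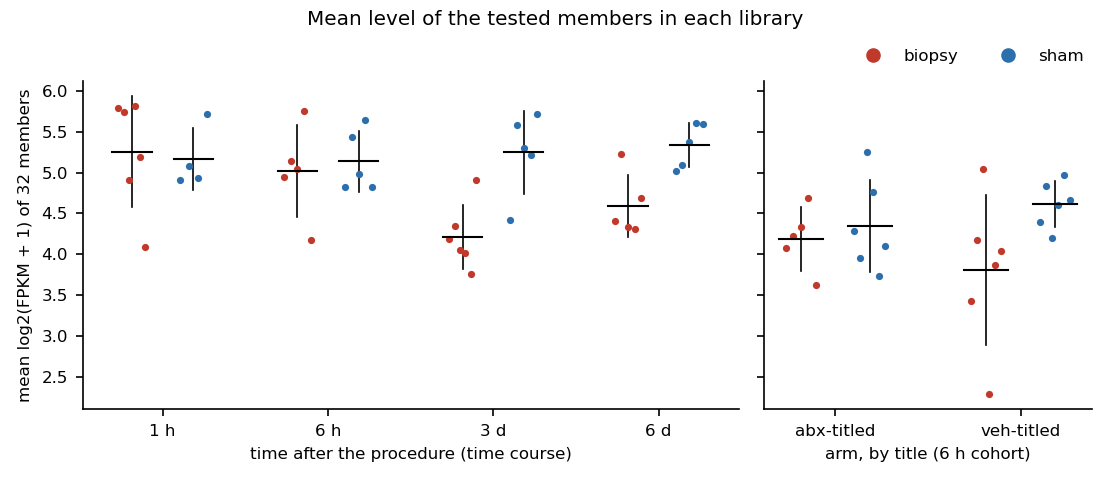
Mean log2(FPKM + 1) of the 33 contractile genes in every library (points), by time in the time course and by titled arm in the second cohort. Horizontal lines give group means and vertical lines SD. The mean includes the untested Myocd, although the axis label counts 32 genes. At 3 d the biopsies sit between 3.76 and 4.91 and the shams between 4.42 and 5.72, while the veh-titled biopsies spread from 2.29 to 5.05.

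At 1 h the contractile genes as a group were not called apart in the wound bed and the sham colon. Of the 32 tested genes 1 was called higher and 0 lower in limma, against 9.38% of all tested genes called higher and 45.0% called lower, and 1 gene had an unadjusted p under 0.05. The median log2 change of the 32 genes was 0.07, against -0.18 over all tested genes. The gene called was Tnnt2, troponin T, which ties tropomyosin to troponin. Tnnt2 had a lowest of 18.6, a median of 45.9 and a highest of 68.4 FPKM in the 6 biopsy libraries, against 18.1, 14.6, 24.8 and 35.0 FPKM in the 4 sham libraries. The groups overlapped. Biopsies 1, 2, 3 and 4, at 42.8 FPKM and above, lay over the highest sham at 35.0, and biopsies 5 and 6, at 29.4 and 18.6, lay among the shams. Its log2 change was 0.87 ± 0.37 (SE), with an adjusted p of 0.0468 (limma), and the call was lost without any 1 of biopsies 1, 2, 3 and 4 or shams 1, 2 and 4, and with a pseudocount of 0.1.

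The main filament genes were within their spread at 1 h. Myh11 had a lowest of 47.1, a median of 175 and a highest of 261 FPKM in the 6 biopsy libraries, against 117, 142, 103 and 239 FPKM in the 4 sham libraries. Acta2 had a lowest of 174, a median of 497 and a highest of 672 FPKM in the 6 biopsy libraries, against 346, 367, 385 and 608 FPKM in the 4 sham libraries. For both genes the biopsies lay on either side of the shams, and biopsy 6 was the lowest library. Actg2, the enteric actin, had a lowest of 219, a median of 785 and a highest of 1093 FPKM in the 6 biopsy libraries, against 364, 487, 442 and 875 FPKM in the 4 sham libraries. Des had a lowest of 105, a median of 416 and a highest of 541 FPKM in the 6 biopsy libraries, against 231, 237, 209.9 and 443 FPKM in the 4 sham libraries. Cnn1 had a lowest of 101, a median of 395 and a highest of 528 FPKM in the 6 biopsy libraries, against 205, 221, 169.6 and 352 FPKM in the 4 sham libraries. All 5 genes overlapped between groups, and sham 5 was the highest sham for each. Their log2 changes were -0.01 ± 0.42 for Myh11, 0.01 ± 0.33 for Acta2, 0.36 ± 0.40 for Actg2, 0.30 ± 0.38 for Des and 0.46 ± 0.38 for Cnn1 (SE), with adjusted p from 0.31 to 0.987 in limma. The signs for Myh11 and Acta2 changed with the scaling of the libraries.

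**Figure D2:**
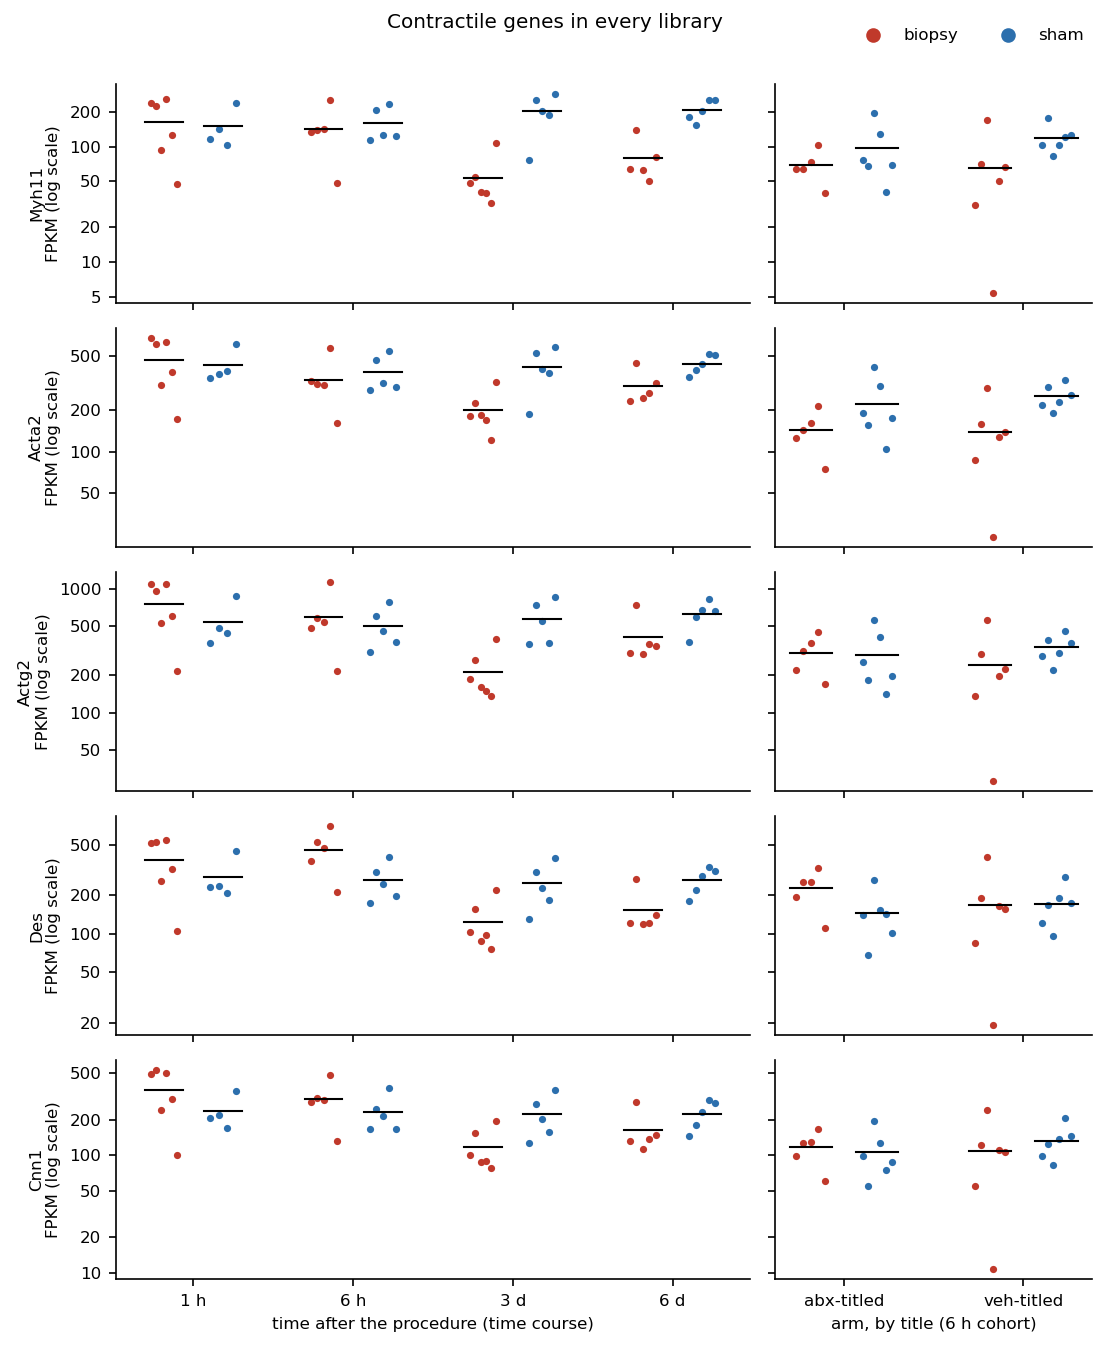
FPKM of Myh11, Acta2, Actg2, Des and Cnn1 in every library on log axes (points), with group means (lines), by time and by titled arm. Myh11 in 3 d biopsies runs from 32.6 to 109 FPKM, with 4 of the 5 shams at 189 to 287 FPKM.

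At 6 h single contractile genes moved apart from each other in the wound bed. The small heat shock protein gene Hspb7 rose, and so did Tnnt2, while the phosphatase inhibitor gene Ppp1r14a, Lmod1, which builds actin filaments, and the calcium store gene Casq2 fell. In limma 2 of 32 genes were called higher and 8 lower, against 24.3% and 43.2% of all tested genes, and the median change was -0.13 against -0.12 over all genes. With libraries scaled by the median of ratios, 5 were called higher and 7 lower. By role, 1 filament gene was called higher (Tnnt2) and 2 lower (Lmod1, Smtn) of 12, 2 of 5 kinase and phosphatase genes were lower (Ppp1r12b, Ppp1r14a), 2 of 7 crosslinker genes were lower (Synpo2, Ldb3), 2 of 4 calcium genes were lower (Casq2, Pln), and 1 of the 4 creatine kinase and heat shock genes was higher (Hspb7). Among the 10 called genes, Ppp1r14a, Casq2, Ldb3 and Hspb7 did not overlap between the groups. The share of all tested genes without such overlap was not counted, so this has no background to be read against.

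Hspb7, a small heat shock protein of muscle, had 23.9, 33.1, 27.0, 42.1 and 20.0 FPKM in the 5 biopsy libraries, against 7.57, 7.77, 14.6, 11.1 and 7.90 FPKM in the 5 sham libraries. The lowest biopsy stood above the highest sham. The means were 29.2 ± 8.66 FPKM in biopsies (SD, n = 5) and 9.80 ± 3.08 FPKM in shams (SD, n = 5), and the log2 change was 1.48 ± 0.35 (SE), adjusted p 0.000411 in limma. Tnnt2 had 29.3, 38.6, 30.3, 68.5 and 11.5 FPKM in the 5 biopsy libraries, against 13.4, 24.3, 11.6, 28.7 and 7.49 FPKM in the 5 sham libraries. Biopsy 6 lay among the shams and biopsies 1, 3, 4 and 5 above them, biopsy 5 the furthest. The log2 change of Tnnt2 was 0.96 ± 0.37 (SE), adjusted p 0.0201 in limma, a call that was lost without biopsy 5 or without sham 3 or 5. Striated muscle markers were read because Tnnt2 is shared with that tissue. The 24 markers summed to 47.1 to 68.5 FPKM in biopsies and 10.5 to 29.6 FPKM in shams at 6 h. Only 6 of them were tested, with 3 called higher and 1 lower, against 24.3% and 43.2% of all tested genes. Pvalb and Xirp2 were listed at 0 in every library of both groups, and the part of these markers in the result was not tested.

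Ppp1r14a, whose protein CPI-17 inhibits myosin phosphatase, had 14.9, 17.9, 17.5, 27.5 and 12.8 FPKM in the 5 biopsy libraries, against 31.3, 46.9, 34.4, 63.9 and 41.5 FPKM in the 5 sham libraries. The highest biopsy, 5, stayed under the lowest sham. The log2 change was -1.22 ± 0.25 (SE), adjusted p 6.17e-05 in limma. Lmod1 had 4.70, 6.05, 4.11, 10.6 and 3.49 FPKM in the 5 biopsy libraries, against 10.6, 17.4, 12.98, 15.2 and 10.5 FPKM in the 5 sham libraries. Biopsy 5 alone reached the range of the shams, and the log2 change was -1.14 ± 0.30 (SE), adjusted p 0.00126 in limma. Casq2 had 1.54, 1.94, 2.01, 3.71 and 1.28 FPKM in the 5 biopsy libraries, against 5.05, 6.11, 4.53, 4.61 and 5.23 FPKM in the 5 sham libraries. All biopsies lay under all shams, with a log2 change of -1.02 ± 0.17 (SE), adjusted p 1.79e-06 in limma. The other called genes fell by smaller amounts, Smtn by 1.01, Pln by 0.76, Synpo2 by 0.73, Ppp1r12b by 0.57 and Ldb3 by 0.47 on the log2 scale, the last 4 genes having sham means of 1.34 to 7.34 FPKM.

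The abundant filament genes were not called at 6 h. Myh11 had 135, 139.7, 142, 254 and 48.3 FPKM in the 5 biopsy libraries, against 114, 207, 127, 234 and 124 FPKM in the 5 sham libraries. Acta2 had 326, 309, 306, 565 and 163 FPKM in the 5 biopsy libraries, against 280.2, 466, 313, 543 and 295 FPKM in the 5 sham libraries. Actg2 had 484, 578, 544, 1136 and 219 FPKM in the 5 biopsy libraries, against 312, 600.0, 459, 779.7 and 373 FPKM in the 5 sham libraries. Each had 1 biopsy, 6, under all shams and another, 5, above them. Des had 369, 519, 465, 696 and 212 FPKM in the 5 biopsy libraries, against 175, 304, 246, 402 and 198 FPKM in the 5 sham libraries. Cnn1 had 286, 307, 293, 481 and 131 FPKM in the 5 biopsy libraries, against 166, 247, 216, 373 and 166 FPKM in the 5 sham libraries. Log2 changes were -0.28 ± 0.41 for Myh11, -0.24 ± 0.32 for Acta2, 0.12 ± 0.39 for Actg2, 0.73 ± 0.37 for Des and 0.31 ± 0.37 for Cnn1 (SE), with adjusted p of 0.0774 for Des and from 0.46 to 0.801 for the others in limma. Des, the muscle intermediate filament, passed without biopsy 6 or sham 4 and with median-of-ratios scaling.

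The change of the biopsy difference between 1 h and 6 h was tested directly. It was called lower at 6 h for 5 of 32 genes, against 16.8% of all tested genes. The difference fell by 1.16 for Smtn (adjusted p 0.0288), 1.05 for Pln (0.0219), 0.97 for Ppp1r14a (0.0247), 0.78 for Casq2 (0.0071) and 0.62 for Ppp1r12b (0.0253) on the log2 scale in limma. For Ppp1r12b the shams moved more than the biopsies, from a mean of 0.662 FPKM at 1 h to 1.34 at 6 h, against 0.702 and 0.579 in biopsies. Without sham 1 at 1 h the count was 1, and without sham 4 at 6 h it was 2. The biopsy difference of Hspb7 was larger at 6 h than at 1 h but missed the threshold, with an adjusted p of 0.0506.

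At 3 d nearly the whole contractile list was lower in the wound bed. All 32 tested genes had a negative change, and 27 were called lower and 0 higher in limma, against 10.5% of all tested genes called lower and 32.1% called higher. The median log2 change was -0.99, against 0.09 over all tested genes, and the range was -2.84 to -0.02. The lowest values belonged to Pcp4, Ckm, Myh11, Synm and Tnnt2. Called lower were 11 of 12 filament genes, all 5 kinase and phosphatase genes, 5 of 7 crosslinker genes, 3 of 4 calcium genes and 3 of 4 creatine kinase and heat shock genes. The 5 genes not called were Cald1 (-0.02), Flna (-0.68), Ldb3 (-0.22), Hspb7 (-0.47) and Kcnmb1 (-0.34 on the log2 scale). Without any 1 library the count stayed between 21 and 30. Pcp4, Ckm and Tnnt2 were the 3 genes whose groups did not overlap, a count without a share over all tested genes to set it against. Sham 1 was the lowest sham for 32 of the 33 genes and biopsy 6 the highest biopsy for all 33. Fibroblast markers moved the other way at 3 d, 6 of 10 being called higher and 1 lower, with a summed level of 429.7 to 1052 FPKM in biopsies and 229.9 to 505 FPKM in shams, and their part in the result was not tested.

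Pcp4, which binds calmodulin and alters its calcium exchange, had a lowest of 1.02, a median of 1.65 and a highest of 4.82 FPKM in the 6 biopsy libraries, against 14.2, 21.4, 20.6, 24.6 and 19.7 FPKM in the 5 sham libraries. All biopsies lay under all shams, and the biopsy mean was 0.105 of the sham mean. The log2 change was -2.84 ± 0.42 (SE), adjusted p 1.43e-06 in limma. Reads of Pcp4 can be shared with Igsf5, whose annotation holds 17.5% of its 50-base windows, so part of its value may belong to that gene. Ckm, the muscle creatine kinase that buffers ATP, had a lowest of 0.686, a median of 1.30 and a highest of 4.46 FPKM in the 6 biopsy libraries, against 5.80, 11.6, 9.99, 10.3 and 11.5 FPKM in the 5 sham libraries. The highest biopsy, 6, stayed under the lowest sham, 1. The log2 change was -2.08 ± 0.38 (SE), adjusted p 3.6e-05 in limma, with the limit given above for its overlapping gene.

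Myh11, the motor of the filaments, had a lowest of 32.6, a median of 44.3 and a highest of 109 FPKM in the 6 biopsy libraries, against 77.0, 255, 204, 189 and 287 FPKM in the 5 sham libraries. Biopsies 1 to 5 lay under all shams, and biopsy 6 lay above sham 1. The biopsy mean was 0.267 of the sham mean, with a log2 change of -1.87 ± 0.39 (SE) and an adjusted p of 0.000212 in limma. Acta2 had a lowest of 121, a median of 184 and a highest of 319.6 FPKM in the 6 biopsy libraries, against 187, 518, 399.6, 373 and 574 FPKM in the 5 sham libraries. Actg2 had a lowest of 136, a median of 174 and a highest of 393 FPKM in the 6 biopsy libraries, against 359, 736, 556, 365 and 856 FPKM in the 5 sham libraries. For both actins sham 1 lay within the range of the biopsies, as did sham 4 for Actg2. Their log2 changes were -0.99 ± 0.31 (adjusted p 0.00883) and -1.43 ± 0.38 (adjusted p 0.00242) in limma (SE).

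Des had a lowest of 76.3, a median of 101 and a highest of 219.5 FPKM in the 6 biopsy libraries, against 131, 304, 229, 184 and 395 FPKM in the 5 sham libraries. Cnn1, calponin, had a lowest of 78.1, a median of 95.1 and a highest of 197 FPKM in the 6 biopsy libraries, against 127, 270.4, 205, 158 and 357 FPKM in the 5 sham libraries. Both overlapped between groups through biopsies 2 and 6 and shams 1 and 4. Their log2 changes were -0.9997 ± 0.35 (adjusted p 0.0211) for Des and -0.90 ± 0.35 (adjusted p 0.0371) for Cnn1 in limma (SE). The call for Des was lost without sham 2 or sham 5, and that for Cnn1 without any 1 of biopsies 1, 3, 4 and 5 or shams 2, 3 and 5.

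The step between 6 h and 3 d was tested as a change of the biopsy difference and was called lower for 14 of 32 genes, against 11.0% of all tested genes. The largest changes were -3.74 ± 0.61 for Pcp4 (adjusted p 5.02e-06), -2.62 ± 0.51 for Tnnt2 (6.21e-05), -2.19 ± 0.55 for Ckm (0.00112) and -1.95 ± 0.49 for Hspb7 (0.00124) on the log2 scale in limma (SE). The other 10 were Des, Myh11, Actg2, Tpm2, Pgm5, Myl9, Cnn1, Tagln, Csrp1 and Tpm1, from -1.73 to -0.75. Both Pcp4 and Tnnt2 had means above their shams at 6 h and under them at 3 d.

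**Figure D3:**
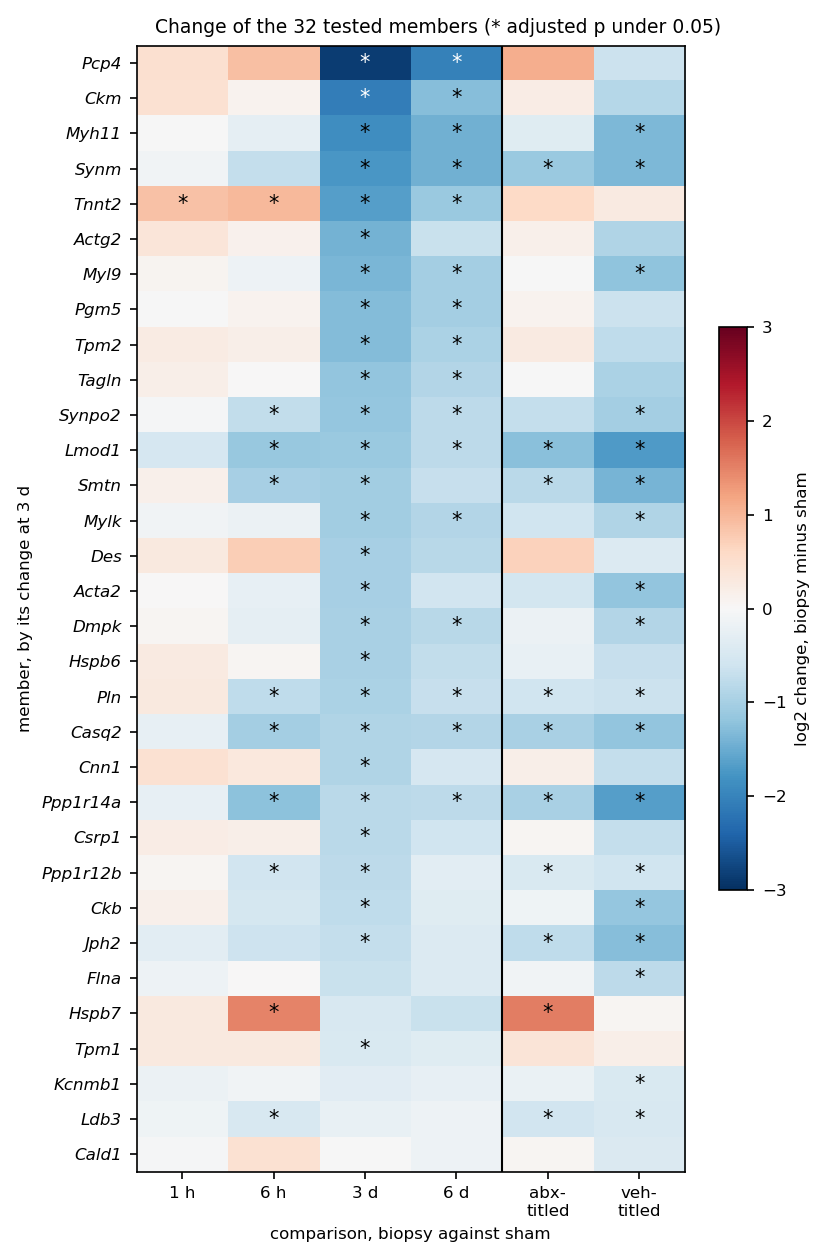
Log2 change of each of the 32 tested genes, biopsy minus sham, in 1 column per time (1 h, 6 h, 3 d, 6 d) and per titled arm, coloured blue for lower and red for higher in biopsies, with an asterisk where the adjusted p was under 0.05. The 3 d column is blue throughout with 27 asterisks, and the 1 h column has 1.

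At 6 d the contractile genes were still below sham in the wound bed, with a smaller median change than at 3 d. All 32 tested genes had a negative change, with a median of -0.76 against 0.11 over all tested genes. In limma 16 were called lower and 0 higher, against 10.2% of all tested genes called lower and 34.1% called higher, and 20 had an unadjusted p under 0.05. Called lower were 6 of 12 filament genes (Myh11, Myl9, Tagln, Tpm2, Lmod1 and Tnnt2), 4 of 5 kinase and phosphatase genes, 3 of 7 crosslinker genes, 2 of 4 calcium genes and 1 of 4 creatine kinase and heat shock genes (Ckm). The count was 10 without biopsy 4 or without sham 5, and 25 when only the 6 d libraries were fitted. Groups did not overlap for 6 of the genes, Pcp4, Synm, Myh11, Myl9, Casq2 and Ppp1r14a. The share of all tested genes without overlap was not counted, so whether 6 is many or few is unknown.

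Pcp4 had 5.18, 11.7, 3.52, 2.61 and 8.44 FPKM in the 5 biopsy libraries, against 15.0, 21.3, 29.1, 34.0 and 36.1 FPKM in the 5 sham libraries. The highest biopsy, 2, lay under the lowest sham, 1, and the biopsy mean was 0.232 of the sham mean. The log2 change was -2.04 ± 0.44 (SE), adjusted p 0.000325 in limma. Synm, which links intermediate filaments to adhesion sites, had 7.44, 19.2, 7.79, 5.57 and 11.2 FPKM in the 5 biopsy libraries, against 21.8, 24.0, 26.2, 32.4 and 34.3 FPKM in the 5 sham libraries. Myh11 had 63.6, 139, 62.8, 50.6 and 81.7 FPKM in the 5 biopsy libraries, against 180.1, 154, 204, 252 and 256 FPKM in the 5 sham libraries. In both genes biopsy 2 was the highest biopsy and stayed under every sham. Their log2 changes were -1.45 ± 0.39 (adjusted p 0.00286) and -1.45 ± 0.41 (adjusted p 0.00426) in limma (SE).

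Acta2, Actg2, Des and Cnn1 were not called at 6 d. Acta2 had 235, 439.7, 245, 267 and 317 FPKM in the 5 biopsy libraries, against 348, 391, 435, 514 and 501 FPKM in the 5 sham libraries. Actg2 had 301, 747, 301, 359 and 347 FPKM in the 5 biopsy libraries, against 376, 598, 672, 835 and 666 FPKM in the 5 sham libraries. In both, 4 biopsies lay under every sham and biopsy 2 among the shams. Des had 121, 267, 119, 121 and 141 FPKM in the 5 biopsy libraries, against 179.7, 221, 282, 336 and 309 FPKM in the 5 sham libraries. Cnn1 had 131, 284, 112, 137 and 149 FPKM in the 5 biopsy libraries, against 145, 179.9, 232, 292 and 279.6 FPKM in the 5 sham libraries. Biopsy 2 overlapped the shams for Des, as did biopsies 2 and 5 for Cnn1. Log2 changes were -0.56 ± 0.32 for Acta2, -0.66 ± 0.39 for Actg2, -0.82 ± 0.37 for Des and -0.50 ± 0.37 for Cnn1 (SE), adjusted p 0.0662 for Des and 0.15 to 0.276 for the others in limma. Between 3 d and 6 d the biopsy difference moved upward for 30 of 32 genes, by a median of 0.29, but 0 genes were called, against 1.84% of all tested genes, and 1 had an unadjusted p under 0.05.

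To see which genes departed from the others, each gene was also taken relative to the mean log2(FPKM + 1) of the 32 tested genes in its own library, an analysis added after the data were seen. Changes on this scale average 0 over the 32 genes, so a gene can only be high or low against the rest of the list. At 1 h 0 genes were called on this scale in limma, and 3 had an unadjusted p under 0.05, against 1.77% of all tested genes called higher and 1.48% called lower. The number of genes called depended on the settings, being 4 at 6 h and 24 at 3 d when Myh11 alone took the place of the mean, and 26 and 23 with libraries weighted by their quality. With a pseudocount of 0.1 the count at 1 h was 2, and without biopsy 6 it was also 2.

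At 6 h 5 genes were called higher and 6 lower than the list, against 7.78% and 2.39% of all tested genes. Higher were Hspb7 (1.61, adjusted p 1.52e-06), Tnnt2 (1.09, 0.000866), Pcp4 (1.03, 0.00497), Des (0.86, 0.00211) and Cald1 (0.58, 0.0362) on the log2 scale in limma. Lower were Ppp1r14a (-1.09, adjusted p 0.000178), Lmod1 (-1.01, 0.00015), Casq2 (-0.89, 0.00825), Smtn (-0.88, 0.000549), Pln (-0.63, 0.0393) and Synpo2 (-0.61, 0.0218). Pcp4, a gene that was not called before, had 32.1, 44.5, 47.9, 53.0 and 13.9 FPKM in the 5 biopsy libraries, against 17.5, 33.2, 10.7, 37.0 and 8.38 FPKM in the 5 sham libraries. Its biopsies 3, 4 and 5 lay above every sham.

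At 3 d 6 genes were called higher and 5 lower than the list, against 95.7% and 0.0979% of all tested genes. The first share reflects that most genes of the tissue had no such decrease, so it is no measure for single genes. Lower than the list were Pcp4 (-1.78, adjusted p 1.94e-07), Ckm (-1.02, 4.21e-05), Myh11 (-0.81, 0.000432), Synm (-0.68, 0.00142) and Tnnt2 (-0.60, 0.0136) on the log2 scale in limma. Higher were Cald1 (1.04, adjusted p 9e-06), Ldb3 (0.84, 0.0022), Kcnmb1 (0.72, 0.000642), Tpm1 (0.59, 0.00536), Hspb7 (0.59, 0.016) and Flna (0.38, 0.0438). Cald1, caldesmon, had a lowest of 30.8, a median of 43.2 and a highest of 68.1 FPKM in the 6 biopsy libraries, against 21.8, 56.1, 43.6, 46.0 and 70.0 FPKM in the 5 sham libraries, so the biopsies lay within the range of the shams. Ldb3 and Kcnmb1 stand near 1 to 4 FPKM, where the pseudocount of 1 shrinks changes, and with a pseudocount of 0.1 all 11 genes were called in the same direction.

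At 6 d 3 genes were called higher than the list, Cald1 (0.61), Ldb3 (0.60) and Kcnmb1 (0.52), and 4 lower, Pcp4 (-1.27), Synm (-0.69), Myh11 (-0.68) and Ckm (-0.52), with adjusted p from 0.000262 to 0.0351 in limma, against 81.3% and 0.211% of all tested genes. Each of the 7 was also called on this scale at 3 d and in the same direction, in biopsies and shams that are other libraries than those of 6 d. Tnnt2, low against the list at 3 d, stood at -0.36 at 6 d (adjusted p 0.156).

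**Figure D4:**
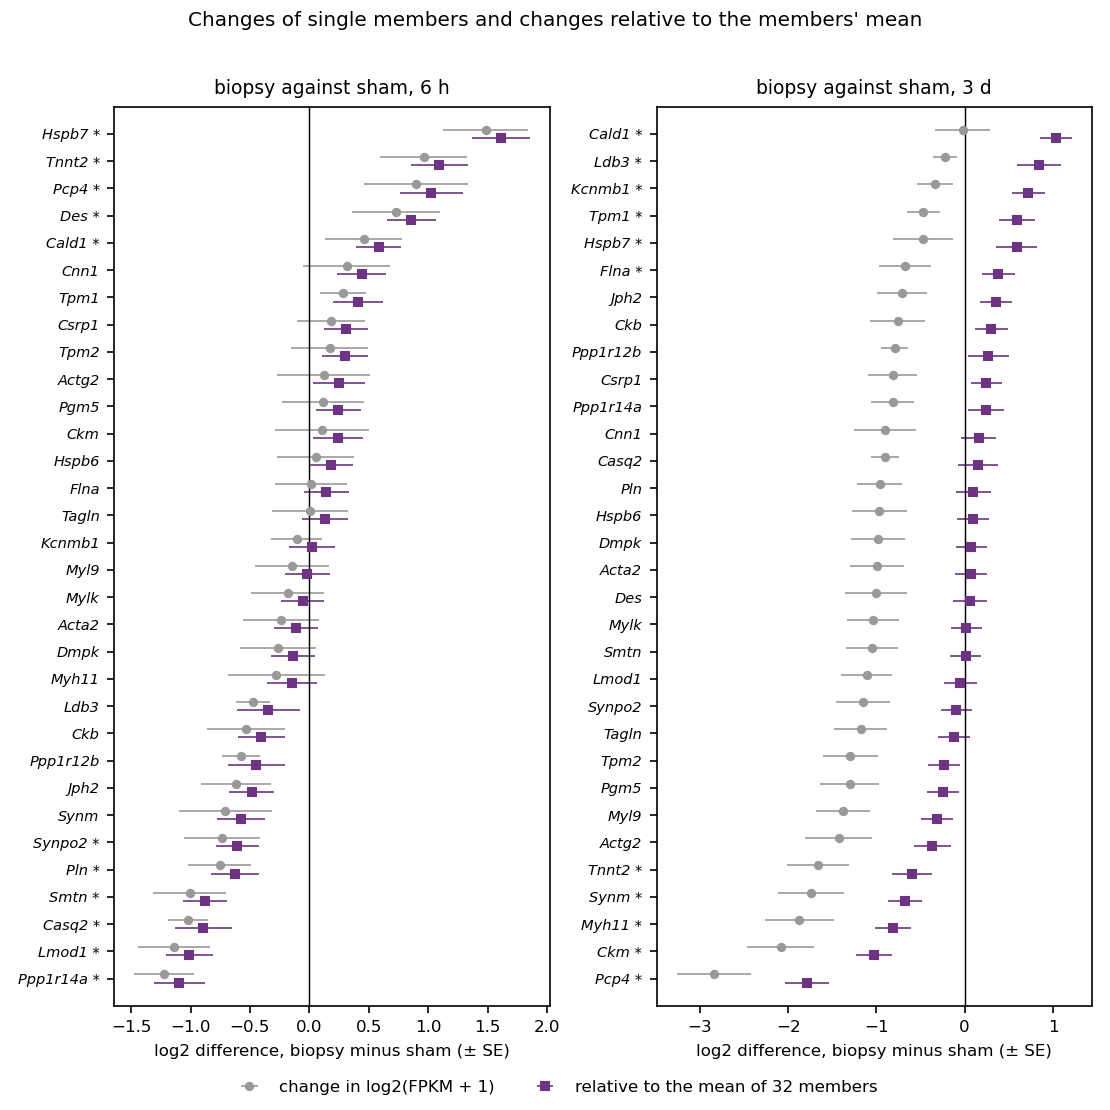
Log2 difference of each of the 32 tested genes at 6 h and 3 d, biopsy minus sham, as log2(FPKM + 1) (grey circles) and relative to the mean of the 32 genes in each library (purple squares), with SE bars and an asterisk at genes called on the relative scale. Hspb7 leads at 6 h with 1.61 and Pcp4 is last at 3 d with -1.78.

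The second cohort repeated the 6 h comparison in its abx-titled and veh-titled arms. In the abx-titled arm Hspb7 was called higher and 9 genes lower, against 26.5% and 43.9% of all tested genes, with a median change of -0.15 against -0.12 over all genes. The 9 were Lmod1, Synm, Ppp1r14a, Casq2, Smtn, Jph2, Pln, Ldb3 and Ppp1r12b. In the veh-titled arm 18 genes were called lower and 0 higher, against 49.0% and 25.7% of all tested genes, with a median of -0.82 against -0.17. With median-of-ratios scaling 1 was called higher and 12 lower in the veh-titled arm. By role, lower calls numbered 2 of 12 filament genes in the abx-titled arm and 5 of 12 in the veh-titled arm, 2 and 4 of 5 kinase and phosphatase genes, 2 and 4 of 7 crosslinker genes, 3 and 4 of 4 calcium genes, and 0 and 1 of 4 creatine kinase and heat shock genes. Without abx-titled biopsy 6 the lower and higher calls of that arm together fell to 6 of 32, and without any 1 library the veh-titled count lay between 12 and 26.

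Hspb7 had 17.8, 19.3, 23.3, 28.0 and 9.79 FPKM in the 5 biopsy libraries, against a lowest of 2.20, a median of 6.62 and a highest of 12.4 FPKM in the 6 sham libraries. Biopsy 6 lay among the shams and the other biopsies above them, with a log2 change of 1.54 ± 0.47 (SE), adjusted p 0.0061 in limma. In the veh-titled arm Hspb7 had a lowest of 1.96, a median of 10.1 and a highest of 26.5 FPKM in the 6 biopsy libraries, against a lowest of 4.74, a median of 6.89 and a highest of 19.5 FPKM in the 6 sham libraries, and its change was 0.06 ± 0.45 on the log2 scale (SE) at an adjusted p of 0.912. The shams of the veh-titled arm lay within the range of its biopsies. Lmod1 had 2.58, 1.39, 2.29, 4.14 and 1.03 FPKM in the 5 biopsy libraries, against a lowest of 3.73, a median of 6.04 and a highest of 12.2 FPKM in the 6 sham libraries of the abx-titled arm, a log2 change of -1.27 ± 0.29 (SE, adjusted p 0.00052), with biopsy 5 alone above the lowest sham. Lmod1 had a lowest of 0.563, a median of 1.61 and a highest of 4.37 FPKM in the 6 biopsy libraries, against a lowest of 5.98, a median of 7.51 and a highest of 9.21 FPKM in the 6 sham libraries of the veh-titled arm, where no biopsy reached the lowest sham, a log2 change of -1.69 ± 0.28 (SE, adjusted p 9.21e-06).

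Ppp1r14a had 4.53, 7.32, 8.02, 17.3 and 4.22 FPKM in the 5 biopsy libraries, against a lowest of 6.44, a median of 13.7 and a highest of 31.3 FPKM in the 6 sham libraries of the abx-titled arm. Biopsies 3, 4 and 5 overlapped the shams there, and the log2 change of -0.97 ± 0.37 (SE, adjusted p 0.0242 in limma) was no longer called without biopsy 2 or 6 or sham 3 or 4. Ppp1r14a had a lowest of 1.68, a median of 5.67 and a highest of 11.1 FPKM in the 6 biopsy libraries, against a lowest of 13.6, a median of 18.8 and a highest of 23.8 FPKM in the 6 sham libraries of the veh-titled arm, without overlap and with a log2 change of -1.64 ± 0.35 (SE, adjusted p 0.000255). Casq2 did not overlap in either arm. It had 0.775, 0.380, 0.574, 0.962 and 0.456 FPKM in the 5 biopsy libraries, against a lowest of 1.16, a median of 2.29 and a highest of 2.98 FPKM in the 6 sham libraries titled abx, and a lowest of 0.668, a median of 1.13 and a highest of 1.69 FPKM in the 6 biopsy libraries, against a lowest of 3.53, a median of 3.69 and a highest of 4.49 FPKM in the 6 sham libraries titled veh, with log2 changes of -0.97 and -1.19 (adjusted p 1.42e-06 and 2.4e-08 in limma). Ldb3, at 0.370 to 1.82 FPKM over all 23 libraries, did not overlap in either arm, with log2 changes of -0.58 and -0.48.

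Synm had 3.12, 3.27, 3.37, 5.91 and 2.28 FPKM in the 5 biopsy libraries, against a lowest of 2.84, a median of 7.34 and a highest of 22.1 FPKM in the 6 sham libraries of the abx-titled arm. Its log2 change of -1.11 ± 0.43 (SE, adjusted p 0.0256 in limma) was not called without biopsy 6 or sham 3 or 4, and its biopsies lay under all shams but sham 5. Smtn, an actin-binding protein of contractile smooth muscle, had a lowest of 4.14, a median of 10.04 and a highest of 26.0 FPKM in the 6 biopsy libraries, against a lowest of 21.8, a median of 30.0 and a highest of 38.7 FPKM in the 6 sham libraries of the veh-titled arm, where biopsy 3 alone reached the shams, and a log2 change of -1.39 ± 0.33 (SE, adjusted p 0.000584).

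Myh11 had 63.6, 64.1, 73.8, 103 and 39.9 FPKM in the 5 biopsy libraries, against a lowest of 40.4, a median of 72.9 and a highest of 196 FPKM in the 6 sham libraries of the abx-titled arm and a lowest of 5.42, a median of 58.6 and a highest of 171 FPKM in the 6 biopsy libraries, against a lowest of 83.0, a median of 112 and a highest of 177 FPKM in the 6 sham libraries of the veh-titled arm. Acta2 had 125, 144, 162, 216 and 74.8 FPKM in the 5 biopsy libraries, against a lowest of 105, a median of 182 and a highest of 414 FPKM in the 6 sham libraries of the abx-titled arm and a lowest of 23.9, a median of 133 and a highest of 292 FPKM in the 6 biopsy libraries, against a lowest of 192, a median of 245 and a highest of 333 FPKM in the 6 sham libraries of the veh-titled arm. In the veh-titled arm biopsy 4 was far under all other libraries for both genes and biopsy 3 among the highest shams. Their log2 changes were -0.36 ± 0.54 and -1.36 ± 0.52 for Myh11 (adjusted p 0.559 and 0.0214) and -0.56 ± 0.44 and -1.18 ± 0.42 for Acta2 (0.255 and 0.0136) in limma (SE), the first value of each pair being of the abx-titled arm. Without veh-titled biopsy 4 the change of Myh11 in that arm was -0.79 and was not called.

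Actg2 had 220.2, 314, 366, 449.9 and 172 FPKM in the 5 biopsy libraries, against a lowest of 143, a median of 228 and a highest of 563 FPKM in the 6 sham libraries of the abx-titled arm and a lowest of 28.1, a median of 212 and a highest of 564 FPKM in the 6 biopsy libraries, against a lowest of 223, a median of 335 and a highest of 461 FPKM in the 6 sham libraries of the veh-titled arm. Des had 194, 255, 256, 325 and 110.0 FPKM in the 5 biopsy libraries, against a lowest of 67.6, a median of 142 and a highest of 263 FPKM in the 6 sham libraries of the abx-titled arm and a lowest of 19.3, a median of 161 and a highest of 402 FPKM in the 6 biopsy libraries, against a lowest of 95.4, a median of 171 and a highest of 279 FPKM in the 6 sham libraries of the veh-titled arm. Cnn1 had 98.6, 126, 130.3, 166 and 60.5 FPKM in the 5 biopsy libraries, against a lowest of 54.7, a median of 93.0 and a highest of 197 FPKM in the 6 sham libraries of the abx-titled arm and a lowest of 10.7, a median of 108 and a highest of 244 FPKM in the 6 biopsy libraries, against a lowest of 82.7, a median of 131 and a highest of 205 FPKM in the 6 sham libraries of the veh-titled arm. The groups overlapped for all 3 genes in both arms, and none was called. Log2 changes in the abx-titled arm were 0.14 ± 0.51, 0.69 ± 0.51 and 0.17 ± 0.51, and in the veh-titled arm -0.90 ± 0.48, -0.40 ± 0.49 and -0.70 ± 0.49 for Actg2, Des and Cnn1 (SE).

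The biopsy difference was not called apart between the arms for any contractile gene in limma, against 3.31% of all tested genes, although 31 of 32 differences were higher in the abx-titled arm, with a median of 0.65, and 2 had an unadjusted p under 0.05. The SE of these differences was large, as in 1.00 ± 0.75 for Myh11, 1.74 ± 0.83 for Pcp4 and 1.48 ± 0.65 for Hspb7. In the shams Casq2 was called lower in the abx-titled arm by 0.60 on the log2 scale (adjusted p 0.00325), the 1 gene of 32, against 9.20% of all tested genes called lower. In the biopsies Ldb3 was called lower in the abx-titled arm by 0.22 (adjusted p 0.0397), again 1 of 32, against 7.22%. On the scale relative to the list, Hspb7 (1.70) and Pcp4 (1.27) were called higher and Lmod1 (-1.10) lower in the abx-titled arm, against 6.67% and 2.28% of all tested genes. In the veh-titled arm Tnnt2 (1.09) and Tpm1 (1.00) were called higher and Lmod1 (-0.87) lower, against 32.8% and 0.743%. These counts of 3 fell to 1 without abx-titled biopsy 3 or sham 6, and to 0 without veh-titled sham 6, 1 without veh-titled biopsy 1 or 5 or sham 1 or 2, and rose to 5 without veh-titled biopsy 3 or 4.

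**Figure D5:**
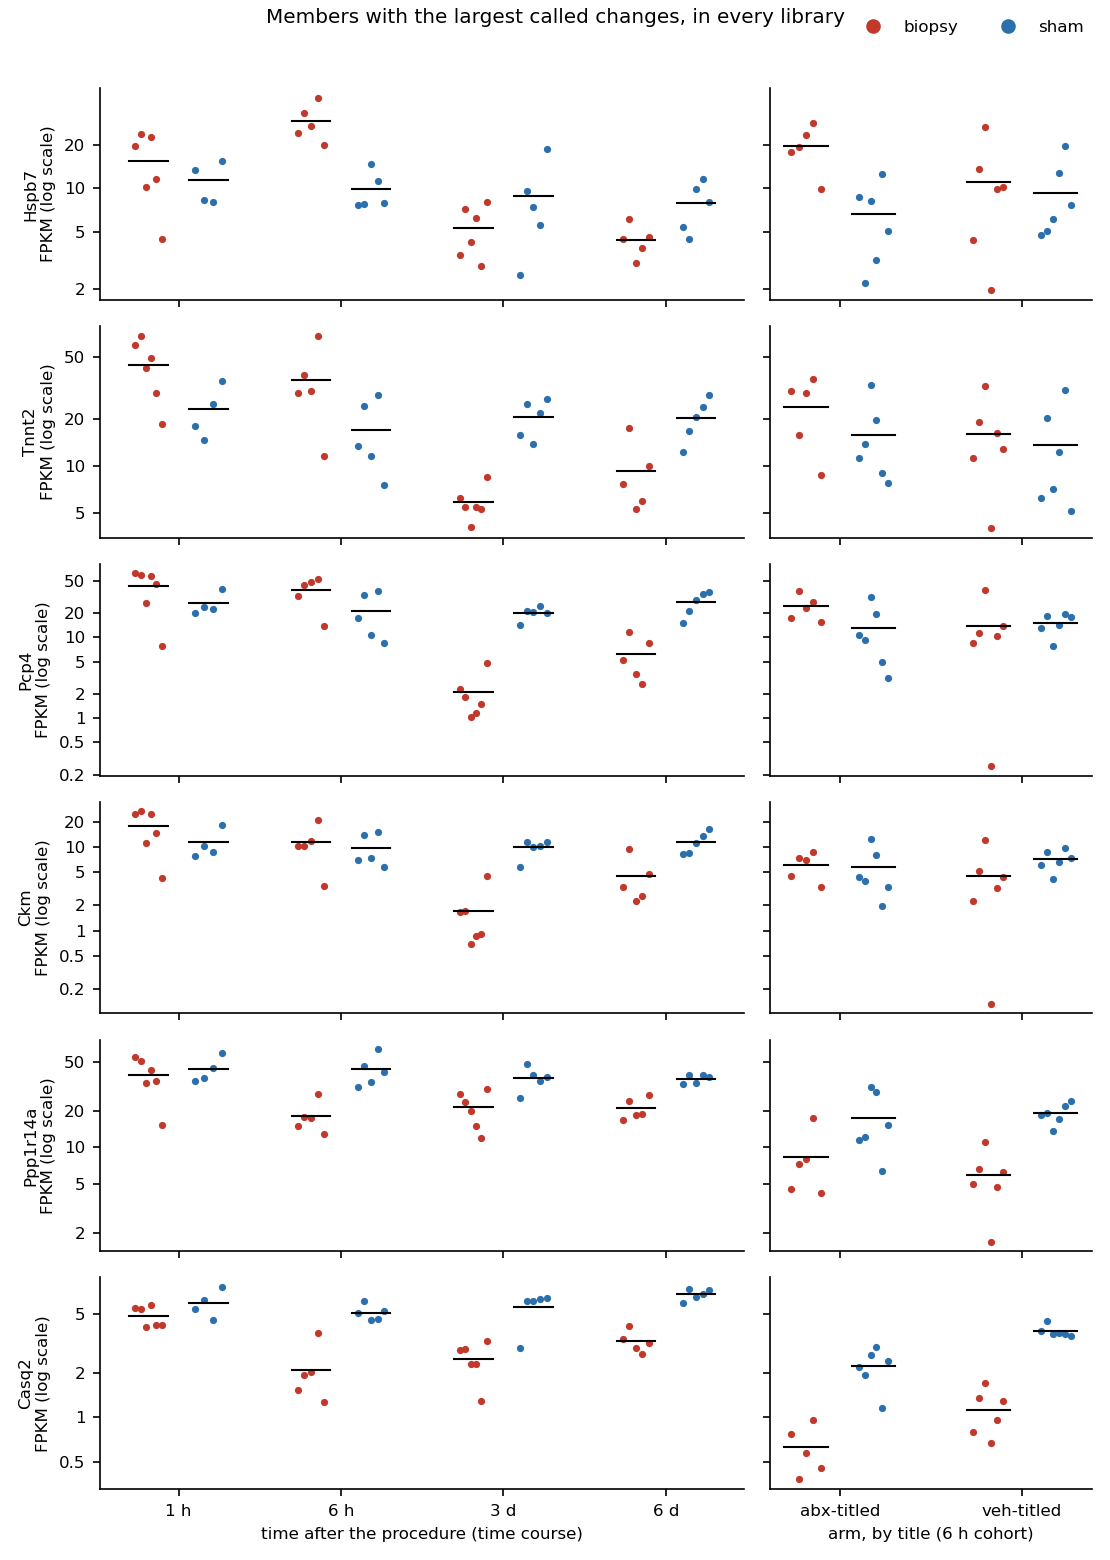
FPKM of Hspb7, Tnnt2, Pcp4, Ckm, Ppp1r14a and Casq2 in every library on log axes (points), with group means (lines), by time and by titled arm. Hspb7 biopsies at 6 h (20.0 to 42.1 FPKM) sit above their shams (7.57 to 14.6 FPKM), and Pcp4 biopsies at 3 d (1.02 to 4.82 FPKM) sit below theirs (14.2 to 24.6 FPKM).

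Among the 4 sham groups of the time course, 2 of 32 contractile genes differed in limma's F test, against 59.0% of all tested genes. Ppp1r12b averaged, in FPKM, 0.662, 1.34, 2.84 and 1.72 in the sham groups of 1 h, 6 h, 3 d and 6 d (adjusted p 4.77e-06). Ldb3 averaged 1.89, 2.68, 2.88 and 3.11 FPKM (adjusted p 0.0198), and without sham 1 or sham 4 at 1 h only 1 gene was called. The larger spread of the contractile genes between libraries widens the error of each such test, and a p above the threshold does not show equal levels.

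Genes that regulate or accompany the contractile genes were read from further lists. Counts of these lists stand against the shares of all tested genes called higher and lower, which were 9.38% and 45.0% at 1 h, 24.3% and 43.2% at 6 h, 32.1% and 10.5% at 3 d, 34.1% and 10.2% at 6 d, 26.5% and 43.9% in the abx-titled arm, and 25.7% and 49.0% in the veh-titled arm. Of 13 SRF coactivators and muscle transcription factors 3 were called higher and 4 lower at 1 h, 4 and 4 at 6 h, 2 and 2 at 3 d, and 3 and 1 at 6 d, and of 12 tested in the second cohort 5 and 3 in the abx-titled and 2 and 5 in the veh-titled arm. Fhl2, a LIM protein that binds SRF, was higher in all 6 comparisons, by 2.06, 1.39, 1.08 and 0.87 at 1 h, 6 h, 3 d and 6 d and by 1.80 and 2.01 in the abx-titled and veh-titled arms on the log2 scale, with adjusted p of 2.06e-07 or less in limma. Srf was higher at 1 h, with 31.9 FPKM in biopsies and 14.3 FPKM in shams, a log2 change of 1.10, and stood at -0.08, -0.01 and 0.03 at the later times. The myocardin-related coactivator Mkl1 fell by 0.62 at 1 h, and its relative Mkl2 by 0.62 at 6 h. Klf4, a repressor of smooth muscle genes that is also active in colon epithelium, fell by 0.48 at 3 d and 0.54 at 6 d.

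Of 8 tested channel and pump genes (6 in the second cohort), 1 was higher and 1 lower at 1 h, 2 and 3 at 6 h, 2 and 1 at 3 d, 3 and 2 at 6 d, and 2 and 3 and 2 and 4 in the abx-titled and veh-titled arms. Itpr1, the calcium release channel, fell by 0.79 at 6 h, and Atp2b4, a calcium pump, by 0.86 at 3 d.

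Of 9 tested receptors for contractile agonists (6 in the second cohort), 2 were higher and 2 lower at 1 h, 3 and 1 at 6 h, 2 and 3 at 3 d, 1 and 2 at 6 d, and 1 and 1 and 0 and 4 in the abx-titled and veh-titled arms. Ptger3, a prostaglandin E2 receptor, was lower in all 6 comparisons, by 0.49 to 0.73 over the time course and by 1.43 and 1.45 in the abx-titled and veh-titled arms. At 3 d the tachykinin receptor Tacr2 fell by 0.84 and the endothelin receptor Ednra rose by 0.97. Of 30 genes of dense plaques and the muscle cytoskeleton, 5 were higher and 1 lower at 1 h, 9 and 6 at 6 h, 7 and 7 at 3 d and 7 and 7 at 6 d, and of 27 tested in the second cohort 10 and 5 and 6 and 14 in the abx-titled and veh-titled arms. Over all tested genes 24.3% were called higher and 43.2% lower at 6 h, and 32.1% higher and 10.5% lower at 3 d. Cryab, a small heat shock protein that binds desmin, had 77.3 FPKM in biopsies and 20.0 FPKM in shams at 6 h, a log2 change of 1.87, and stood at -0.29 at 3 d. The muscle LIM proteins Pdlim3 and Lims2 fell by 1.35 and 1.16 at 3 d, and vimentin (Vim), an intermediate filament of fibroblasts and leukocytes, rose by 0.91.

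Markers of other cells in the tissue moved between the same groups, and their part in the results above was not tested. Of 10 fibroblast markers 0 were higher and 7 lower at 1 h, 1 and 6 at 6 h, and 7 and 0 at 6 d, when they summed to 979.7 to 1480 FPKM in biopsies and 455 to 569.5 FPKM in shams. They were 1 and 7 in the abx-titled and 0 and 9 in the veh-titled arm. Over all tested genes 45.0% were called lower at 1 h, 43.2% at 6 h, 43.9% in the abx-titled and 49.0% in the veh-titled arm, and 34.1% were called higher at 6 d. Of 12 epithelial markers 9 were higher and 0 lower at 1 h, 9 and 1 at 6 h, 6 and 2 at 3 d and 1 and 6 at 6 d, and 8 and 1 and 8 and 2 in the abx-titled and veh-titled arms. Their sum at 6 h was 11413 to 12517 FPKM in biopsies and 7235 to 8021 FPKM in shams, and at 3 d 6976 to 7622 FPKM in biopsies and 6991 to 10762 FPKM in shams. All 8 tested neutrophil markers were higher at 6 h, 3 d and 6 d and in both arms and 6 at 1 h, with sums of 369 to 917 FPKM in biopsies and 0.393 to 2.23 FPKM in shams at 6 h. All 6 red blood cell markers were higher at 1 h, with sums of 835 to 6072 FPKM in biopsies and 32.7 to 141 FPKM in shams, and 6 at 6 h, 0 at 3 d and at 6 d, 6 in the abx-titled and 4 in the veh-titled arm.

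Of 24 striated muscle markers 6 passed the filter in the time course and 3 in the second cohort. Called higher were 1 at 1 h, 3 at 6 h, 2 at 3 d, 3 at 6 d and 2 in each arm, and 1 was called lower, at 6 h. Acta1, skeletal actin, rose in all 6 comparisons, by 2.44 at 1 h with 34.4 FPKM in biopsies and 5.21 FPKM in shams, and by 1.59 at 3 d, and Tnni2, a troponin I, rose by 2.43 at 6 h and 1.51 at 3 d. At 3 d, when Tnnt2 and Ckm fell, the striated markers summed to 17.8 to 37.8 FPKM in biopsies and 11.5 to 13.9 FPKM in shams. The median log2 change of the 6 tested markers was -0.05 at 3 d, so the higher sum does not stand for the whole list. Of 8 tested pericyte and vascular muscle markers 3 were lower at 1 h, 2 higher and 2 lower at 6 h, and 3 higher at 3 d and at 6 d. Kcnj8, a pericyte potassium channel, rose by 1.75 at 6 h and 1.25 at 3 d, while Rgs5 fell by 1.18 at 6 h.

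Among 4 markers of the interstitial cells of Cajal, the pacemaker cells of gut muscle, 1 was lower at 1 h and at 6 h and 1 higher at 3 d and at 6 d. Kit, the receptor that marks these cells and mast cells, fell by 1.66 at 6 h, with 1.15 FPKM in biopsies and 5.78 FPKM in shams, and stood at 0.05 at 3 d. Kit also fell by 1.06 and 1.29 in the abx-titled and veh-titled arms. Of 10 tested enteric neuron markers 1, 3, 2 and 1 were higher at 1 h, 6 h, 3 d and 6 d and 0 lower, while in the other cohort 8 of 8 were higher in the abx-titled and 1 in the veh-titled arm. Their sums were 43.6 to 111 FPKM in abx-titled biopsies and 15.5 to 31.5 FPKM in abx-titled shams, against 6.18 to 69.6 FPKM in veh-titled biopsies and 22.98 to 45.1 FPKM in veh-titled shams. Of 5 tested glial markers 1 was higher and 1 lower at 1 h, 2 and 2 at 6 h, and 0 at 3 d and 6 d, and the 1 tested mesothelial marker was higher at 6 h, 3 d and 6 d and in both arms.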

How the data were processed

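The authors deposited 1 table of FPKM values per library, aligned and quantified with STAR and Cufflinks on mm10, per the submitters' processing notes, with poly(A) RNA prepared by the TotalScript kit per the labels' protocols. Neither labels nor tables give versions, annotation, strand use or read numbers, so the depth is unknown and no count model was used. FPKM is relative to each library's total, so a large gain of some transcripts lowers the values of others.

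Groups were taken from titles and condition labels. The R 4.3.3 package limma 3.58.1 fitted log2(FPKM + 1) with 1 mean per group and an intensity trend, separately for the time course (13285 genes, 33 residual degrees of freedom) and the second cohort (11849 genes, 19). The fit took the spread of a gene as equal in all groups of a cohort, and SE and calls rest on that. Spreads were unequal, as the SD of the 33 genes' mean log2(FPKM + 1) was 0.914 in veh-titled biopsies and 0.280 in veh-titled shams. Genes needed 1 FPKM in at least 4 libraries, and p-values were adjusted over all tested genes by Benjamini and Hochberg. The analysis was tested on simulated data. One further gene list is not reported here. The members and lists were chosen with earlier results of these data known. Named in every comparison were Myh11, Acta2, Actg2, Des and Cnn1, and further up to 3 called members in each direction with the largest change and a mean of at least 1 FPKM. Of the marker and pathway lists up to 4 called genes with the largest change were eligible, and the other values given for those genes at other times, and those of Srf, Kit, Cald1, Pcp4 at 6 h and the remaining members, were chosen after their values were seen. Results were recomputed with median-of-ratios and quantile scaling, array weights, a fit of the compared groups alone, a replicate block, and leaving out each library, as well as with a 0.1 pseudocount and with the filter dropped or raised to 5 FPKM. Values relative to the list's own mean were added after the data were seen. Tables were handled with Python 3.11.15 and pandas 2.3.3.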

Additional observations from a re-analysis of the deposited data

Results flagged for a closer look

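In 106 tests of a library far from the others of its group, 10 values stood out, and chance gives about 1 in 20 for a single test. The tests share libraries and genes that moved together and used untransformed FPKM, so 10 of 106 cannot be set against that rate. At 1 h sham 5 was far above the other shams for Acta2, at 608.256 FPKM, and for Des, at 442.595 FPKM. At 3 d biopsy 6 was far above the other biopsies for Myh11, at 108.632 FPKM, Pcp4, at 4.82243 FPKM, and Ckm, at 4.46273 FPKM, while sham 1 was far below the other shams for Ckm, at 5.80328 FPKM. At 6 d biopsy 2 was far above the other biopsies for Actg2, at 746.745 FPKM, Des, at 266.823 FPKM, and Cnn1, at 284.408 FPKM. Among abx-titled biopsies, biopsy 5 was far above the others for Ppp1r14a, at 17.3443 FPKM. Biopsy 6 at 3 d and sham 5 at 1 h were the highest library of their group for all 33 contractile genes.

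The difference between biopsy and sham was tested for a change between times in limma. It was called lower for 5 of 32 genes between 1 h and 6 h, against 16.8% of all tested genes, a similar share. Between 6 h and 3 d it was called lower for 14 of 32, against 11.0% of all tested genes. The 4 genes with the largest change in each step are given. Between 1 h and 6 h it moved by -1.1588 for Smtn, -1.054 for Pln, -0.9735 for Ppp1r14a and -0.7793 for Casq2 on the log2 scale. Between 6 h and 3 d it moved by -3.7424 for Pcp4, -2.6199 for Tnnt2, -2.1946 for Ckm and -1.9528 for Hspb7.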

How the results depend on the processing

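The number of contractile genes called stayed within 1.5 times of the reported count for 6 h, 3 d, 6 d against 3 d, the veh-titled arm and the difference of the arms under every alternative run. At 1 h the count of 1 became 0 with a pseudocount of 0.1, no filter or only the compared groups, and 2 with median-of-ratios scaling or array weights. At 6 d the count of 16 became 25 with only the compared groups. For 3 d against 6 h it became 22 with array weights. Among the sham groups the count of 2 became 0 with the filter of 5 FPKM, 5 with array weights and 1 with only the shams fitted. In the abx-titled arm the count of 10 became 6 with the filter of 5 FPKM, which leaves fewer genes tested. Between the arms' shams it became 0 with that filter, and between their biopsies it became 0 with that filter or no filter, 2 with a pseudocount of 0.1, median-of-ratios or quantile scaling, and 3 with array weights. Leaving out 1 library gave 0 to 2 at 1 h, 8 to 12 at 6 h, 21 to 30 at 3 d, 10 to 21 at 6 d, 1 to 6 for 6 h against 1 h, 11 to 19 for 3 d against 6 h, 1 to 2 among shams, 6 to 12 and 12 to 26 in the abx-titled and veh-titled arms and 0 to 3 between their biopsies.

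Relative to the list's mean, array weights gave 19, 26, 23, 23, 26 and 20 calls at 1 h, 6 h, 3 d, 6 d and in the abx-titled and veh-titled arms, and values relative to Myh11 gave 4, 24, 18 and 0 at 6 h, 3 d, 6 d and in the abx-titled arm. The count at 1 h became 2 with a pseudocount of 0.1 or the replicate block. Fitting only the compared groups gave 5 at 6 h and 1 in the veh-titled arm, the filter of 5 FPKM gave 1 in each arm, and no filter or the replicate block 1 in the veh-titled arm. Leaving out 1 library gave 0 to 2, 8 to 12, 8 to 12, 5 to 9, 1 to 3 and 0 to 5. The cause of these changes was not tested.

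Reversals concerned uncalled values. Myh11 at 1 h was 0.2172 with median-of-ratios scaling, 0.2453 with array weights, 0.1741 with the replicate block and -0.1857 to 0.3031 without 1 library. Acta2 at 1 h was -0.06474 with quantile scaling and -0.1293 to 0.26 without 1 library. Without 1 library Myh11 at 6 h was -0.5258 to 0.0666, Actg2 at 6 h -0.162 to 0.4296, Actg2 in the abx-titled arm -0.02938 to 0.365 and Des in the veh-titled arm -0.7469 to 0.1159. Deviations of same-numbered biopsies and shams from their group means correlated at -0.282 to 0.254 over the tested genes, in 4 to 6 pairs per comparison. So few pairs cannot show whether a number marks a shared animal or batch, and the main fit used no pairing. With the replicate block Cnn1 at 3 d lost its call at -0.77 and Des at 6 h passed at 0.93. Unknown read depth limits genes near 1 FPKM, such as Ppp1r12b, Pln, Kcnmb1 and Ldb3.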
